A study of Homo sapiens with 4 samples.

Results

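The genes described here are the sensors of foreign RNA and DNA, the adaptors and kinases that relay their signal, the interferons with their receptors, and the genes that interferon switches on, measured in Huh7, a line of human hepatocellular carcinoma cells. A list of 58 genes was taken, and 56 of them were represented by a probe set annotated to that gene alone, out of 22395 genes with such a probe set. Where a gene had several probe sets, that of highest mean signal stood for it. STAT2 was not analysed here, and TRIM25 was not counted because its probe set also names the microRNA gene MIR3614. The study transfected Huh7 cells with pcFLAG, taken here as the control plasmid (control, n = 2), or with pcFLAG-hSTYK1, which carries human STYK1 (STYK1, n = 2), and profiled total RNA on Affymetrix whole-transcript arrays. STYK1 is a receptor-like protein kinase, and the comparison asks which transcripts differ when it is overexpressed. Both groups received plasmid DNA, no untransfected cells were analysed here, and the labels give neither the time after transfection nor whether the replicates came from separate cultures. The p-values therefore rest on the spread between these arrays alone, and that spread may be technical.

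Cells detect viral RNA in the cytosol with RIG-I (gene RIGI) and MDA5 (IFIH1), which signal through the mitochondrial adaptor MAVS, and in endosomes with TLR3, which signals through TRIF (TICAM1). Cytosolic DNA, including transfected plasmid, is detected by cGAS (CGAS), which signals through STING (STING1). These routes meet at the kinases TBK1 and IKBKE, which activate IRF3 and IRF7, and the resulting interferons act through cell surface receptors and a transcription factor complex with IRF9 that binds the interferon-stimulated response element (ISRE). Huh7 is a common host for hepatitis C virus in culture, and lines derived from hepatoma cells are known to differ in these pathways from normal hepatocytes.

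Stretches of promoter are shown to place the ISRE in genes that did and did not give a signal on these arrays. The ISRE core was searched as GAAANNGAAA on both strands of RefSeq windows that run from 250 bases before to 50 bases after a transcript start (GRCh38.p14). On the opposite strand it reads as blocks of TTTC. Each stretch is written 5′ to 3′ in the direction of the gene, and capitals mark the core matches; where matches overlap, the capitals run together.
ISG15: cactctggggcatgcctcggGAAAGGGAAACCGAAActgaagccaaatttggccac
IFITM3: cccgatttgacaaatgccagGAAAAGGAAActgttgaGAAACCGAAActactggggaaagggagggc
PARP9: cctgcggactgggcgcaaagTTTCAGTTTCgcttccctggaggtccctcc
IFIT3: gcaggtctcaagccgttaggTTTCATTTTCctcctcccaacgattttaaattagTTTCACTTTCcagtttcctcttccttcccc
IFIT1: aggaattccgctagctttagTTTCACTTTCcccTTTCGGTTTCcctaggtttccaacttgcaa
IFI27: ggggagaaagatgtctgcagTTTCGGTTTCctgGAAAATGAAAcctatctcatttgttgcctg
BST2: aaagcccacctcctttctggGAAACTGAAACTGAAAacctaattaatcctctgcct
SAMD9: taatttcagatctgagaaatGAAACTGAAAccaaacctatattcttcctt
Of these, ISG15 at chr1:1013364-1013419, IFIT3 at chr10:89327821-89327904, IFIT1 at chr10:89392487-89392549, and IFI27 at chr14:94110608-94110670 lie on the plus strand, and IFITM3 at chr11:320866-320932, PARP9 at chr3:122564312-122564361, BST2 at chr19:17405725-17405780, and SAMD9 at chr7:93118086-93118135 lie on the minus strand. They lie upstream of the annotated start of their own transcript. ISG15, IFITM3 and PARP9 gave signals above the background level on all 4 arrays. IFIT1, IFI27, BST2 and SAMD9 gave none above it on any array. IFIT3, shown for the first of its 2 windows, lay under it in the controls and above it with STYK1.

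The background level, called the floor, was the 95th percentile of 358 olfactory receptor genes, which liver cells are not expected to use, and it lay between 0.75 and 0.81 log2 units on the 4 arrays. The median of an array was 0.615 to 0.629, and any pair of arrays correlated at 0.985 to 0.987 over all probe sets (Pearson). The transfected gene followed the labels. STYK1 read 7.40 and 7.86 in the STYK1 arrays against 0.26 and 0.61 in the controls, which lie under the floor. The mean of the STYK1 arrays was 116-fold the floor of the control arrays, and the difference passed (limma, adjusted p = 0.0373). With each array left out in turn the adjusted p was 0.347 to 0.724 and STYK1 no longer passed (limma). The 116-fold figure leaves out the spread between arrays and so is no minimum. All 12 measured hepatocyte and liver cancer markers lay above the floor on every array, with signals of 3.19 to 10.6. Of 12 immune cell markers 3 lay above it on every array, LYZ, CD68 and CD14, while PTPRC, CD3E and MS4A1 lay above it on none; the mean over the 12 was 1.61 and 1.64 on the control arrays, against 1.60 and 1.64 with STYK1. Of 7 fibroblast and 6 endothelial markers 0 lay above the floor on every array. COL1A1 and PDGFRB lay above it on both control arrays only, and ERG on STYK1 replicate 2 only. The immune cell markers NKG7, FCGR3A and IL3RA lay above it on some arrays. Probe sets differ in how they respond to their target, so signals are compared here between arrays or with the floor, and not between genes.

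In Huh7 MAVS, the kinases TBK1 and IKBKE and the interferon receptors gave signals above the floor on every array. The listed RNA and DNA sensors and many interferon-stimulated genes did not, although RIGI did so on 3 of the 4 arrays. Of 42 other measured genes of sensing, 33 lay above it on every array. Of the 56 genes, 21 lay above the floor on all 4 arrays, 10 on some and 25 on none, a share of 37.5% on all arrays against 42.2% of all 22395 genes. Of 22 sensing and signalling genes 10 lay above it on every array, and of 34 effector genes 11 did. The mean signal of the 25 genes that stayed under the floor was 0.51 and 0.50 on the control arrays, against 0.50 and 0.50 with STYK1. In these bulk samples, fewer cells that express a gene and less of its RNA per cell cannot be told apart.

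**Figure D1:**
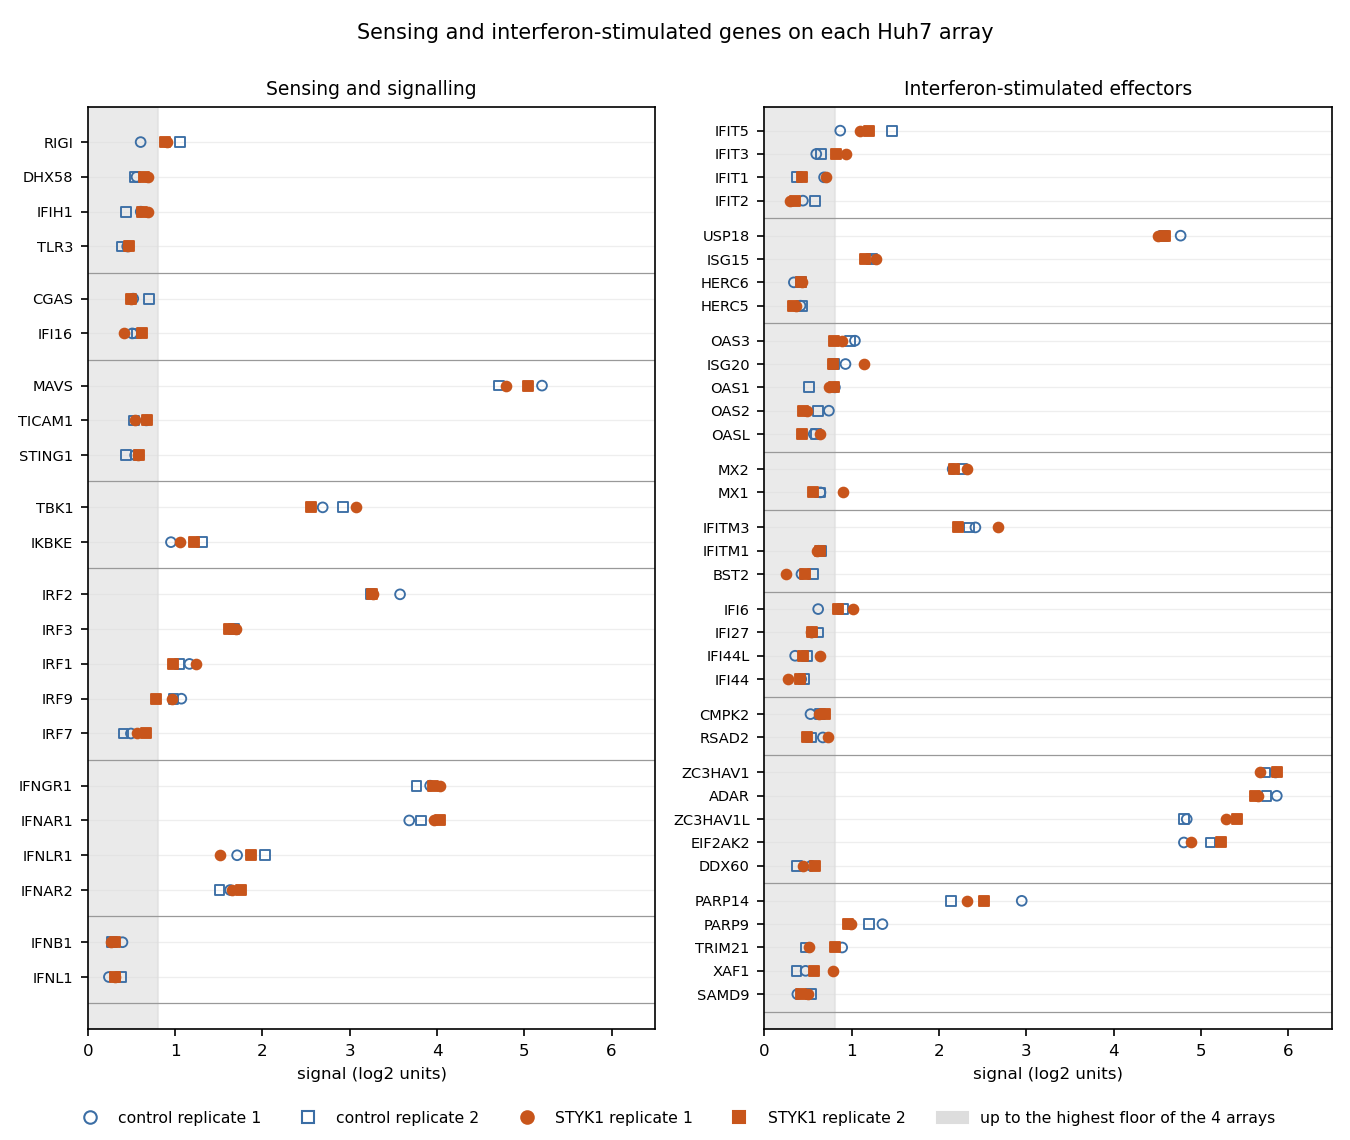
Signal in log2 units (horizontal axis) of each of the 56 genes (rows, grouped by role) on the control arrays (open blue) and the STYK1 arrays (filled orange), with circles for replicate 1 and squares for replicate 2. Grey marks signals up to the highest floor of the 4 arrays; MAVS, TBK1, the interferon receptors, USP18, ADAR, EIF2AK2 and ZC3HAV1 lie to its right in both groups, and IFNB1, IFNL1, CGAS, STING1 and TLR3 lie inside it.

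Counted over the 56 genes, the shares that differed between STYK1 and control lay near those over all probe sets on the array. At an adjusted p under 0.05, 0 of the 56 passed, where 0.00187% of all 53617 probe sets did, which is STYK1 alone (limma). Over all probe sets 4.64%, and over all 22395 genes 3.72%, had an unadjusted p under 0.05 (limma). Of the 56, 3 genes did so, 2 higher and 1 lower, or 5.36%. They were ZC3HAV1L, PARP9 and IFIT3, and the count was 1 without control replicate 1 and 1 without STYK1 replicate 1. The remaining genes had differences of −0.21 to 0.26 log2 units and unadjusted p-values of 0.0515 or more, and the adjusted p of all 56 lay between 0.979 and 1 (limma). The groups did not overlap for 21 genes, 12 with STYK1 higher and 9 lower, or 37.5%, where 32.8% of all probe sets had such groups. For single directions the background was 2.73% higher and 1.91% lower at that unadjusted p, and 17.4% higher and 15.4% lower for groups that did not overlap. Near the background, these shares are no result about the 56 genes. The median difference was 0.0044 over the 56 genes and 0.0022 over all genes, with 30 of the 56 above 0 and 26 below.

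**Figure D2:**
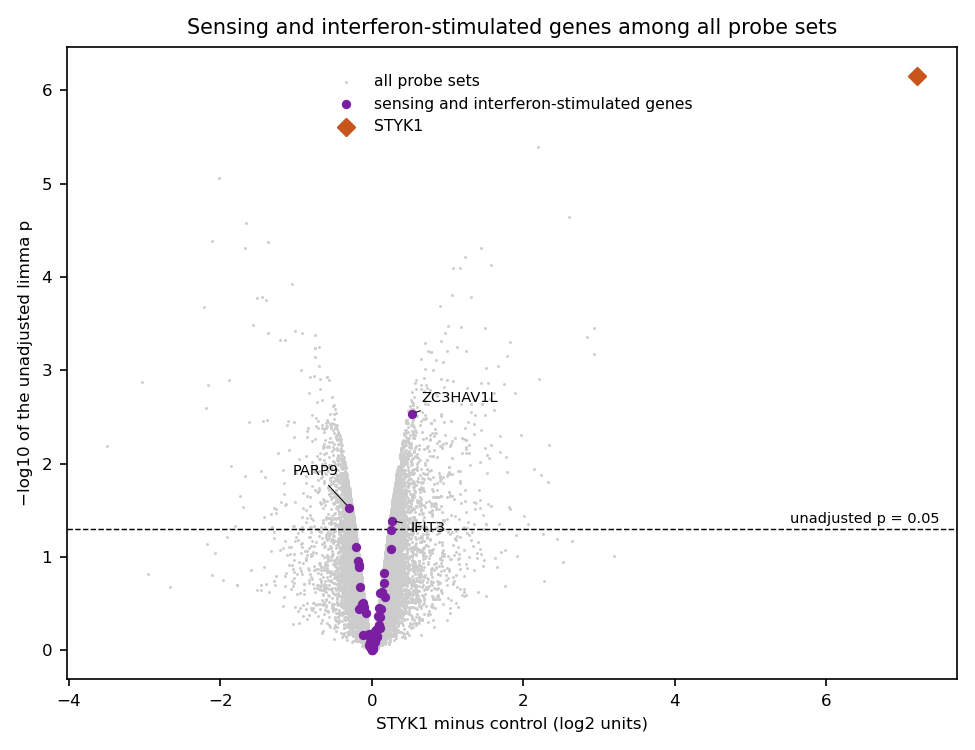
Difference between STYK1 and control in log2 units (horizontal axis) against −log10 of the unadjusted limma p (vertical axis) for all 53617 probe sets (grey), the 56 genes (purple) and STYK1 (orange diamond), which has a difference of 7.19. The dashed line marks an unadjusted p of 0.05, and 3 of the purple points, ZC3HAV1L, PARP9 and IFIT3, lie above it.

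No listed RNA sensor lay above the floor on every array. RIGI, the helicase that binds short RNA with a triphosphate end, read 0.61 and 1.06 on the control arrays, against 0.91 and 0.88 with STYK1. Control replicate 1 lay under the floor and control replicate 2 was the highest of the 4, so the groups overlapped. IFIH1, the sensor of long double-stranded RNA, read 0.61 and 0.44 on the control arrays, against 0.69 and 0.63 with STYK1. DHX58, a helicase of the same family that modulates them, read 0.56 and 0.54 against 0.69 and 0.64. TLR3, the endosomal receptor for double-stranded RNA, read 0.45 and 0.39 against 0.47 and 0.47. In these 3 genes both STYK1 arrays lay above both controls, as for 17.4% of all probe sets, and all of these signals lie under the floor, so no fold is given. The differences of the 4 sensors were 0.05 to 0.14 log2 units, with standard errors of 0.08 to 0.17.

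Of the DNA sensing route, the sensors CGAS and IFI16 and the adaptor STING1 were not detected above the floor. CGAS, the enzyme that makes the second messenger cGAMP on DNA, read 0.52 and 0.70 on the control arrays, against 0.49 and 0.50 with STYK1. STING1, the receptor of cGAMP, read 0.54 and 0.44 on the control arrays, against 0.58 and 0.58 with STYK1. IFI16, a nuclear DNA-binding protein linked to this route, read 0.51 and 0.56 against 0.42 and 0.62. Each of these 12 signals lies under the floor of its array.

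The adaptor MAVS and the kinases downstream of it were measurable in both groups. MAVS read 5.20 and 4.71 on the control arrays, against 4.79 and 5.05 with STYK1, a difference of −0.03 and a standard error of 0.20. TICAM1, the adaptor of TLR3, read 0.53 to 0.68 over the 4 arrays and lay under the floor on each. TBK1 read 2.69 and 2.92 on the control arrays, against 3.08 and 2.55 with STYK1, so the STYK1 arrays held both the highest and the lowest value. IKBKE, its inducible relative, read 0.95 and 1.31 on the control arrays, against 1.05 and 1.22 with STYK1. For MAVS, TBK1 and IKBKE the groups overlapped, and the 95% intervals of the difference, in log2 units, ran from −0.56 to 0.49, from −0.53 to 0.54 and from −0.40 to 0.40.

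Among the transcription factors, IRF2, a factor that competes with IRF1 for the same sites, read 3.58 and 3.24 on the control arrays, against 3.27 and 3.26 with STYK1. Control replicate 1 was the highest and the other 3 arrays read 3.24 to 3.27. IRF3, the constitutive factor that TBK1 phosphorylates, read 1.67 on both controls and 1.69 and 1.62 in the STYK1 arrays. IRF1 read 1.17 and 1.05 on the control arrays, against 1.24 and 0.97 with STYK1, with a difference of −0.0011. IRF7, which interferon itself induces, lay under the floor on all arrays, at 0.49 and 0.41 on the control arrays, against 0.56 and 0.67 with STYK1. IRF9, a DNA-binding part of that complex, read 1.07 and 0.98 on the control arrays, against 0.96 and 0.79 with STYK1, of which the last lies under the floor. IRF9 had a second probe set, at 0.76 and 0.53 on the control arrays, against 0.56 and 0.75 with STYK1, and its difference was 0.016 where that of the first was −0.15.

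All 4 interferon receptor genes were above the floor on every array, and 3 of them read higher in both STYK1 arrays than in either control, as 17.4% of all probe sets did, by amounts that did not pass the test. IFNAR1, a chain of the type I interferon receptor, read 3.68 and 3.82 on the control arrays, against 3.96 and 4.04 with STYK1, a difference of 0.25 (standard error 0.10, limma, adjusted p = 0.979). Its partner chain IFNAR2 read 1.63 and 1.51 against 1.65 and 1.76. IFNGR1, the ligand-binding chain for interferon gamma, read 3.92 and 3.76 against 4.03 and 3.96. IFNLR1, the chain specific to interferon lambda, read 1.71 and 2.03 on the control arrays, against 1.52 and 1.86 with STYK1, so its groups overlapped, with a difference of −0.18 and a standard error of 0.17. Single arrays moved that difference widely, to −0.33 when control replicate 1 was left out and −0.018 when control replicate 2 was. Leaving out STYK1 replicate 1 gave −0.0041, and leaving out STYK1 replicate 2 gave −0.35.

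Of the interferons, IFNB1 and IFNL1 lay under the floor, and IFNL3, from the list of other interferon signalling genes, lay above it on every array. IFNB1, the first interferon made after sensing, read 0.27 to 0.40 and IFNL1, an interferon lambda, 0.24 to 0.38 over the 4 arrays, all under the floor. IFNL3, a further interferon lambda, read 1.03 and 1.03 on the control arrays, against 0.93 and 1.08 with STYK1, so the groups overlapped. On STYK1 replicate 1 it lay under the 99th percentile of the olfactory receptor genes, which was 0.996 there. IFNL2 lay above the floor on STYK1 replicate 2 only, at 0.99. IFNL2 and IFNL3 are close copies, and their probe sets may share transcripts. IFNA1, IFNA2, IFNE, IFNK, IFNW1 and IFNG lay under the floor on every array. Of 20 other measured genes of interferon signalling, 11 lay above the floor on every array. Among them were the tyrosine phosphatases PTPN11 and PTPN1 and the receptor-associated kinase JAK1. JAK1 read 6.13 and 6.43 on the control arrays, against 6.28 and 6.36 with STYK1, PTPN11 6.91 to 6.96 and PTPN1 5.77 to 5.93 over the 4 arrays.

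The classical interferon-stimulated effectors lay mostly at or under the floor. Of the IFIT proteins, which bind foreign RNA caps and ends, IFIT1 read 0.68 and 0.37 on the control arrays, against 0.70 and 0.43 with STYK1, and IFIT2 read 0.44 and 0.58 against 0.29 and 0.35. IFIT5 read 0.87 and 1.46 on the control arrays, against 1.10 and 1.20 with STYK1, above the floor throughout, and the controls spanned both STYK1 values. The enzymes OAS1, OAS2 and OAS3 make the activator of RNase L. OAS2 read 0.74 and 0.61 against 0.49 and 0.44, under the floor on every array, and OASL read 0.57 and 0.59 against 0.63 and 0.43. OAS3 read 1.04 and 0.98 on the control arrays, against 0.89 and 0.80 with STYK1, with STYK1 replicate 2 just under the floor. OAS1 lay above the floor on control replicate 1 only, at 0.81. The exonuclease gene ISG20 read 0.93 and 0.80 on the control arrays, against 1.14 and 0.79 with STYK1.

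Of the ISG15 system, the modifier and its protease lay above the floor on every array and the ligases on none. ISG15, the ubiquitin-like modifier, read 1.19 and 1.23 on the control arrays, against 1.28 and 1.15 with STYK1, above the floor on all 4, with a difference of 0.0043. USP18, the protease that removes ISG15 and damps receptor signalling, read 4.77 and 4.57 on the control arrays, against 4.51 and 4.59 with STYK1. RefSeq lists a pseudogene, USP41P, also called USP18B, so this probe set may hold transcripts of a close copy. HERC5, the ligase that attaches ISG15, and its relative HERC6 read 0.33 to 0.43 over the 4 arrays, all under the floor.

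Among the MX GTPases, and the membrane proteins that block virus entry or release, MX2 read 2.16 and 2.27 on the control arrays, against 2.32 and 2.17 with STYK1. MX1 read 0.64 and 0.63 on the control arrays, against 0.90 and 0.55 with STYK1, above the floor on STYK1 replicate 1 only. IFITM3 read 2.42 and 2.34 on the control arrays, against 2.68 and 2.22 with STYK1, and the STYK1 arrays spanned both controls. IFITM1 read 0.60 to 0.65 and BST2, or tetherin, 0.25 to 0.56 over the 4 arrays, all under the floor. IFITM genes are close copies of each other, and their probe sets may share transcripts. Of the other interferon-stimulated genes, IFI27, IFI44, IFI44L, RSAD2 (viperin), its neighbour CMPK2, SAMD9 and DDX60 lay under the floor on every array. IFI6 read 0.62 and 0.90 on the control arrays, against 1.01 and 0.85 with STYK1, with control replicate 1 under the floor.

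The RNA-binding effectors ADAR, EIF2AK2, ZC3HAV1 and ZC3HAV1L lay above the floor on every array. ADAR, the enzyme that edits adenosine in double-stranded RNA, read 5.87 and 5.75 on the control arrays, against 5.65 and 5.62 with STYK1, lower in both STYK1 arrays with a mean difference of −0.17 (standard error 0.09, limma, adjusted p = 0.979). EIF2AK2, the kinase PKR that halts translation on double-stranded RNA, read 4.80 and 5.11 on the control arrays, against 4.89 and 5.23 with STYK1. ZC3HAV1, the antiviral protein ZAP that binds CpG-rich viral RNA, read 5.85 and 5.74 on the control arrays, against 5.67 and 5.87 with STYK1. For EIF2AK2 and ZC3HAV1 the groups overlapped, with differences of 0.10 and −0.03 and standard errors of 0.17 and 0.11.

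ZC3HAV1L, a relative of ZC3HAV1 and its neighbour on chromosome 7, had the largest difference of the 56 genes and the smallest p. It read 4.84 and 4.81 on the control arrays, against 5.29 and 5.41 with STYK1, or 4.82 ± 0.019 against 5.35 ± 0.089 (SD, n = 2). The difference of 0.53 log2 units had a standard error of 0.093 and a 95% interval of 0.28 to 0.77, and it did not pass over all probe sets (limma, unadjusted p = 0.0029, adjusted p = 0.979). Both STYK1 arrays lay above both controls, by more than the spread within either group. Among all probe sets 130 had a smaller unadjusted p. Leaving out any single array left differences of 0.46 to 0.59 and unadjusted p-values of 0.0085 to 0.0198 (limma).

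PARP9, a PARP family member of the interferon response, had the largest difference in the other direction. It read 1.35 and 1.20 on the control arrays, against 0.99 and 0.96 with STYK1, or 1.27 ± 0.11 against 0.97 ± 0.018 (SD, n = 2), all above the floor. Both STYK1 values lay under the 99th percentile of the olfactory receptor genes, 0.996 and 1.01 on those arrays. The difference of −0.30 had a standard error of 0.10 and a 95% interval of −0.56 to −0.05, and it did not pass (limma, unadjusted p = 0.0296, adjusted p = 0.979). Leaving out control replicate 1 gave an unadjusted p of 0.129, leaving out control replicate 2 gave 0.0351, leaving out STYK1 replicate 1 gave 0.0834 and leaving out STYK1 replicate 2 gave 0.102 (limma). DTX3L, the ubiquitin ligase that works as a complex with PARP9 and is its neighbour on chromosome 3, was picked after its values were seen. It read 3.58 and 3.39 on the control arrays, against 3.23 and 3.24 with STYK1, a difference of −0.25 (standard error 0.10, limma, unadjusted p = 0.0637, adjusted p = 0.979). PARP14, a further member of the family, read 2.95 and 2.13 on the control arrays, against 2.32 and 2.51 with STYK1, so the controls spanned both STYK1 arrays.

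IFIT3, a partner of IFIT1 in RNA binding, had the largest unadjusted p of the 3 genes under 0.05. It read 0.59 and 0.65 in the controls, under the floor, and 0.94 and 0.82 in the STYK1 arrays, just above it. The mean of its STYK1 arrays was 1.08-fold the floor of the control arrays, which is no minimum, since the spread between arrays is left out. Both IFIT3 values on the STYK1 arrays lay under the 99th percentile of the olfactory receptor genes, 0.996 and 1.01 on those arrays. The difference of 0.26 had a 95% interval of 0.016 to 0.50 and did not pass (limma, unadjusted p = 0.0408, adjusted p = 0.979). Without any single array its unadjusted p was 0.055 to 0.153 (limma). XAF1, an interferon-induced inhibitor of an apoptosis inhibitor, read 0.47 and 0.37 on the control arrays, against 0.79 and 0.56 with STYK1, above the floor on STYK1 replicate 1 only. TRIM21, a cytosolic antibody receptor, read 0.89 and 0.47 against 0.52 and 0.80, with the groups overlapping.

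For the genes with a signal the arrays set limits on how large a difference in signal can be. Among the 21 genes above the floor on every array, the differences ran from −0.30 for PARP9 to 0.53 for ZC3HAV1L, and 10 were above 0 and 11 below. The 95% interval lay within 2-fold in either direction for 21 of 21 and within 1.5-fold for 18 of 21; each interval covers a single gene and is not corrected for the number of genes. The widest was that of PARP14, from −0.87 to 0.62, whose controls differed most. For the 25 genes under the floor no such limit can be given, since a change that stays under the floor would not be seen. The limits are on signal, and for genes near the floor, such as PARP9, IRF1, IKBKE, IFIT5 and ISG15, the difference in RNA cannot be sized.

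**Figure D3:**
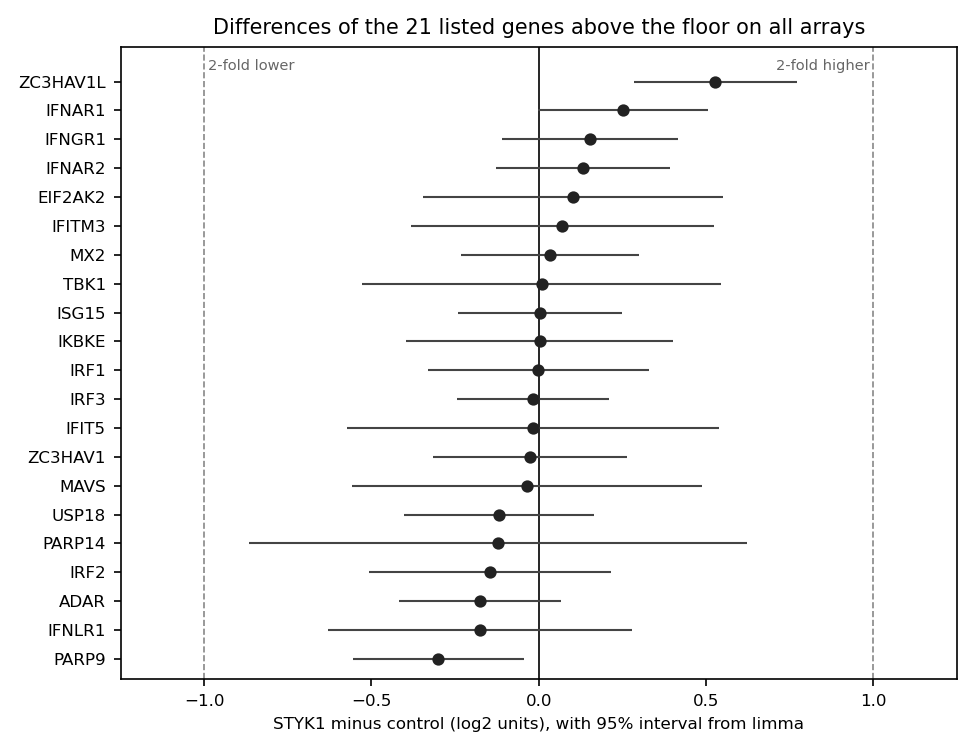
Difference between STYK1 and control in log2 units (points) with its 95% interval from limma (lines) for the 21 genes above the floor on every array; dashed lines mark a 2-fold difference. Intervals of 19 genes include 0, those of ZC3HAV1L and PARP9 do not, and no interval reaches 2-fold.

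The ISRE core was found in promoters of genes with and without a signal. RefSeq windows were available for 46 of the 58 listed genes, and 25 of them, or 54.3%, held the core in at least 1 window, against 4.38% of all 27305 genes with a window. The core followed by a C was found for 20, or 43.5%, against 0.952% of all genes. The core of the gamma-activated site, TTCNNNGAA, was found for 13, or 28.3%, against 9.38%. Of the 25 genes with the ISRE core, 6 lay above the floor on every array (EIF2AK2, IFIT5, IFITM3, ISG15, PARP14 and PARP9), 6 on some arrays and 13 on none. Of the 19 measured genes with a window and no core, 10 lay above it on every array, 4 on some and 5 on none. The median difference between STYK1 and control was 0.0046 for the 25 and 0.0085 for the 19. In ZC3HAV1L, ZC3HAV1, ADAR, MAVS and TBK1 the letters of the ISRE core were not found in the windows searched. A match of letters is a description of the sequence and does not show that a factor binds there.

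**Figure D4:**
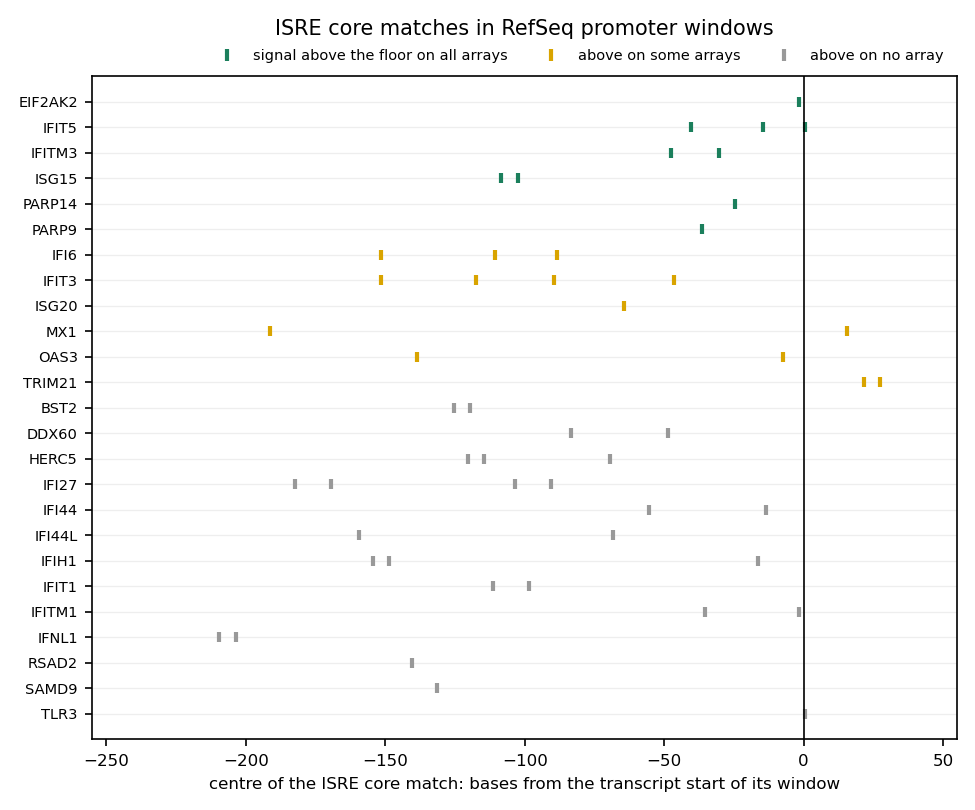
Position of each ISRE core match (ticks), in bases from the transcript start of its window (horizontal axis, negative values upstream), for the 25 genes with a match. Green ticks mark the 6 genes above the floor on every array, yellow those above it on some and grey the 13 above it on none; most matches lie upstream of the start in each colour.

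Other genes of the same pathways were described from lists that leave out the 58. Of 42 measured genes of sensing, 33 lay above the floor on every array, and their median difference was −0.0025, with 20 higher, 22 lower and 0 that passed (limma). At an unadjusted p under 0.05 there were 2 of the 42, where 4.64% of all probe sets did so (limma). Among those above the floor were XRCC5 and PRKDC, parts of the DNA-dependent protein kinase complex, and the helicase DHX9. PRKDC read 7.06 and 7.04 on the control arrays, against 7.23 and 7.26 with STYK1, a difference of 0.20 (limma, adjusted p = 0.979). XRCC5 read 8.25 to 8.43 and DHX9 6.99 to 7.18 over the 4 arrays. TRAF3, a ubiquitin ligase that links MAVS and TRIF to TBK1, read 2.32 and 2.55 on the control arrays, against 2.93 and 2.77 with STYK1, a difference of 0.42 (standard error 0.12, limma, unadjusted p = 0.0212, adjusted p = 0.979). OPTN, a ubiquitin-binding partner of TBK1, read 1.97 and 1.87 against 1.73 and 1.53, a difference of −0.29 (standard error 0.11, limma, unadjusted p = 0.0497, adjusted p = 0.979). Neither passed, and leaving out each array in turn gave unadjusted p-values of 0.0208 to 0.101 for TRAF3 and 0.0377 to 0.193 for OPTN, whose difference then lay between −0.39 and −0.19 (limma).

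Of the 20 other genes of interferon signalling, 7 read higher and 13 lower, with a median difference of −0.02 and 0 that passed (limma). At an unadjusted p under 0.05 there were 2 of the 20, where 4.64% of all probe sets did so (limma). PIAS4, a SUMO ligase of the PIAS family, read 4.01 and 4.12 on the control arrays, against 3.80 and 3.82 with STYK1, a difference of −0.25 (standard error 0.09, limma, unadjusted p = 0.039, adjusted p = 0.979), and its unadjusted p was 0.062 to 0.156 with each array left out (limma). The other was IFNA1, an interferon alpha gene with close copies, which lay under the floor on every array at 0.25 and 0.27 on the control arrays, against 0.53 and 0.49 with STYK1. Of 59 further interferon-stimulated genes, 28 lay above the floor on every array, 35 read higher and 24 lower, the median difference was 0.02, and 0 passed or had an unadjusted p under 0.05 (limma). Among those above the floor were LGALS3BP, a secreted glycoprotein, PSME1, a proteasome activator subunit, and B2M, the light chain of MHC class I. B2M read 5.33 on both controls and 5.39 and 5.26 in the STYK1 arrays, LGALS3BP 6.36 and 6.19 against 6.16 and 5.75, and PSME1 5.56 and 5.59 against 5.52 and 5.41.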

How the data were processed

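Total RNA was isolated with an RNeasy kit, amplified and labelled with biotin, per the labels' protocols. The values used are those the authors deposited for 53617 probe sets, read here as log2 signals; the base was inferred from their range, with a maximum of 11.3. The submitters' processing notes name the Transcriptome Analysis Console, and the sources used here give no version, normalization or genome build. Scanner files were not used here, so scan dates could not be tested as a batch. No further normalization was applied.

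Probe sets were named from the platform annotation, with symbols updated through RefSeq: 23871 had 1 symbol, 1842 several and 27904 none here, and the latter kinds were tested but not named. Groups were compared in limma 3.58.1 under R 4.3.3 (lmFit on group alone, eBayes, no trend), two-sided, and p-values were adjusted across the whole table by Benjamini-Hochberg with a limit of 0.05. Residual degrees of freedom were 2 and the prior 2.71. The fit was tested on simulated data with added differences larger than any among the 56 genes. That test does not cover differences of their size. An exact permutation test of 2 against 2 arrays cannot go below 0.333, so none is given. Values identical to the last deposited digit (no tolerance) occurred at 242 probe sets within the control pair, 171 within the STYK1 pair and 170 to 227 between groups, out of 53617.

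The genes, lists, floor and tests were chosen with earlier results of these data known. By rule, values were given for genes with an unadjusted p under 0.05, the 5 largest differences above the floor and the 3 of highest mean per role, and any listed gene could be named with its level; from each other list, up to 4 with an unadjusted p under 0.05 above the floor and the 3 of highest mean. The other interferon genes, IFI30 and DTX3L were named after their values were seen. Alternatives varied the variance moderation, normalization, filters, choice of probe set, replicate block, floor and motif, and left out each array.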

Additional observations from a re-analysis of the deposited data

How the results depend on the processing

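With 2 arrays per group and no detection calls, precision is limited by the number of arrays, and differences of genes near the floor cannot be sized. Of the 56 genes, 0 passed under each of the 12 alternatives run for that count, with a lowest adjusted p of 0.776 to 1.00 (limma). The median difference moved between −0.01 and 0.03, less than the median replicate SD of 0.094, and was below 0 with quantile normalization, with array medians removed and without STYK1 replicate 1. ZC3HAV1L, PARP9, IFIT3, IFNAR1, IFNLR1 and ADAR kept their direction in the 12 alternatives run for each, although the difference of IFNLR1 was between −0.35 and −0.0041 with each array left out. The count at an unadjusted p under 0.05, 3 as reported, was 1 of 27 genes when only probe sets above the floor were tested, and 1 to 3 when each array was left out in turn; the cause was not tested. In those fits the remaining array of its group borrows the spread of the other group. When only probe sets with 1 symbol and 1 per gene were tested, the count was 4 of 56, with IFNAR1 added (limma, unadjusted p = 0.0473). Without each array STYK1 differed by 6.96 to 7.42 and no longer passed, so 0 probe sets passed in each of these fits. The floor was exceeded on every array by 21 genes, and by 18 to 24 with other floors or without an array.

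Nothing in the labels says that equal replicate numbers mark a shared culture, and the deviations of arrays with equal numbers had a correlation of −0.044 across the table. Fitted with a replicate block, STYK1 differed by 7.19 with an adjusted p of 0.0637, 0 probe sets passed and 2 of the 56 genes had an unadjusted p under 0.05 (limma); the cause was not tested.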

Other observations

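Among the further interferon-stimulated genes, the largest difference was that of IFI30, a lysosomal thiol reductase of antigen processing, picked after its values were seen. It read 4.55 and 4.60 on the control arrays, against 4.37 and 3.92 with STYK1, a difference of −0.43 and a standard error of 0.17 that did not pass (limma, unadjusted p = 0.0556, adjusted p = 0.979). Leaving out STYK1 replicate 2 gave a difference of −0.20, and leaving out STYK1 replicate 1 gave −0.66. With each array left out in turn the unadjusted p was 0.0064 to 0.172 (limma). STYK1 replicate 2 was the lowest of the 4 arrays for IFI30, and it was also the lowest for LGALS3BP.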
